A study of Mus musculus with 20 samples.

Results

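CAP-D3 and CAP-H2 are subunits of one complex, condensin II, and their chromatin maps are compared here across both genotypes of the study. The comparison uses 4 of the series' 12 peak lists: CAP-D3 and CAP-H2, each immunoprecipitated once from Rb1L/L cells and once from WT cells. They were chosen by antibody from the sample labels, and peaks on chromosomes 1 to 19 were kept. This left 30118 CAP-D3 peaks and 84800 CAP-H2 peaks of 1285131 peaks in all 12 lists. The other 8 lists, duplicates of H3K27me3 and of TFIIIC in each genotype, serve as the neighbourhood, and 8 further samples of the 20 in the series are inputs.

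All samples came from C57BL/6 mouse embryonic fibroblasts (MEFs), prepared from E13.5 embryos and grown to passage 4, proliferating asynchronously. Rb1L/L cells carry an allele of Rb1, the gene of the retinoblastoma protein pRB, changed in the cleft that binds LXCXE motifs, and WT cells are wild type for Rb1. Cells for CAP-D3, CAP-H2 and H3K27me3 were crosslinked with 2 mM EGS and then 1% formaldehyde, whereas those for TFIIIC saw formaldehyde alone. The labels do not say whether cultures came from separate embryos. Peak lists hold no marker of cell identity, so the labelled cell type was taken as given.

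Condensins are ring-shaped complexes of a pair of SMC ATPases, a kleisin that closes the ring, and HEAT-repeat subunits that hang from the kleisin. CAP-H2 is the kleisin of condensin II and CAP-D3 one of its HEAT-repeat subunits, and condensin II, unlike condensin I, stays in the nucleus in interphase. H3K27me3 is the histone mark laid down by Polycomb repressive complex 2, and TFIIIC is the RNA polymerase III factor that binds tRNA genes and many sites without that polymerase. pRB is known to associate with CAP-D3, and the study mapped these proteins in both genotypes to compare where they sit. The CAP-D3 antibody was made in-house and affinity-purified from rabbit, and the CAP-H2 antibody was Bethyl A302-275A. A difference between subunits and a difference between antibodies cannot be told apart here.

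The CAP-D3 lists were shorter in both genotypes. CAP-D3 had 12926 peaks and CAP-H2 had 42626 peaks in Rb1L/L cells, and CAP-D3 had 17192 peaks and CAP-H2 had 42174 peaks in WT cells. CAP-H2 peaks thus outnumbered CAP-D3 peaks 3.30-fold in Rb1L/L cells and 2.45-fold in WT cells, a mean log2 ratio of CAP-D3 over CAP-H2 of -1.51. The log2 difference between genotypes within an antibody (Rb1L/L minus WT) was -0.41 for CAP-D3 and 0.02 for CAP-H2, both smaller. The 2 lists of each antibody did not overlap in number, but an exact two-sided permutation test of 2 against 2 lists cannot go below p = 0.333, which is the value obtained. How many reads each library had is not given in these sources, and deeper sequencing yields more peaks.

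CAP-D3 also covered less sequence. Its peaks spanned 11.9 Mb in Rb1L/L cells and 13.3 Mb in WT cells, and CAP-H2 peaks spanned 44.3 Mb in Rb1L/L cells and 45.0 Mb in WT cells. Covered length differed more than peak number (mean log2 ratio -1.83, exact permutation p = 0.333), since CAP-D3 peaks were also narrower. Their median width was 813 bp for CAP-D3 and 873 bp for CAP-H2 in Rb1L/L cells, and 643 bp for CAP-D3 and 906 bp for CAP-H2 in WT cells (mean log2 ratio -0.30, exact permutation p = 0.333). The width gap was therefore small in Rb1L/L cells (log2 ratio -0.10) and larger in WT cells (log2 ratio -0.49). Between genotypes (Rb1L/L minus WT) the log2 median width differed by 0.34 for CAP-D3 and -0.05 for CAP-H2. For CAP-D3 this exceeded the mean ratio between antibodies in size.

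**Figure D1:**
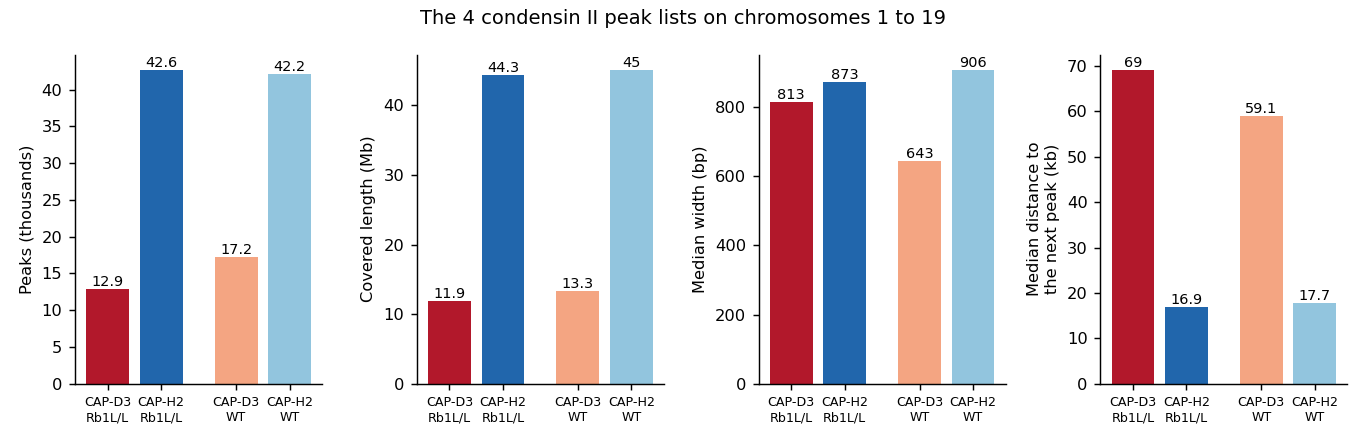
Peak number, covered length (Mb), median peak width (bp) and median distance to the next peak (kb) of the 4 condensin II lists on chromosomes 1 to 19, 1 bar per list. Both CAP-D3 bars stand below both CAP-H2 bars in the first 3 panels and above them in the last, with 69.1 kb and 59.1 kb for CAP-D3 against 16.9 kb and 17.7 kb for CAP-H2.

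Broad peaks were more frequent for CAP-H2. Peaks over 2 kb numbered 237 for CAP-D3 (1.83% of the list) and 2112 for CAP-H2 (4.95%) in Rb1L/L cells, and 159 for CAP-D3 (0.925%) and 2207 for CAP-H2 (5.23%) in WT cells. Over 5 kb there were 5 CAP-D3 peaks and 287 CAP-H2 peaks in Rb1L/L cells, and 1 CAP-D3 peak and 308 CAP-H2 peaks in WT cells. Peaks over 2 kb held 4.85% of the CAP-D3 bases and 16.7% of the CAP-H2 bases in Rb1L/L cells, and 2.81% of the CAP-D3 bases and 17.2% of the CAP-H2 bases in WT cells. The longest CAP-D3 peak measured 9304 bp and the longest CAP-H2 peak 45134 bp, both in Rb1L/L cells.

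Because longer lists hold weaker peaks, each list was also reduced to its 12926 highest-scoring peaks, the length of the shortest. The score is the authors' value per peak, and it ranked peaks only within a list. The width gap became wider at equal number, but width rose with score within the lists. From the lowest to the top of 4 equal score bins, the CAP-H2 median went from 598 to 1374 bp in Rb1L/L cells and from 608 to 1397 bp in WT cells. The cut left the CAP-D3 list of Rb1L/L cells whole and removed most CAP-H2 peaks, so it raised the CAP-H2 medians by itself. The wider gap is therefore not a separate result. Median width was 813 bp for CAP-D3 and 1303 bp for CAP-H2 in Rb1L/L cells, and 765 bp for CAP-D3 and 1321 bp for CAP-H2 in WT cells. Covered length was 11.9 Mb for CAP-D3 and 21.2 Mb for CAP-H2 in Rb1L/L cells, and 11.02 Mb for CAP-D3 and 21.5 Mb for CAP-H2 in WT cells. With number made equal, the mean log2 ratio of covered length was still -0.90, and that of median width -0.73 in place of -0.30.

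Spacing between neighbouring peaks followed list length. The median distance between midpoints was 69.1 kb for CAP-D3 and 16.9 kb for CAP-H2 in Rb1L/L cells, and 59.1 kb for CAP-D3 and 17.7 kb for CAP-H2 in WT cells (mean log2 ratio 1.88, exact permutation p = 0.333). With 12926 peaks per list the distances came close: 69.1 kb for CAP-D3 and 59.2 kb for CAP-H2 in Rb1L/L cells, and 74.3 kb for CAP-D3 and 57.4 kb for CAP-H2 in WT cells. The mean log2 ratio of spacing was thus 1.88 for the lists as deposited and 0.30 at equal number.

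**Figure D2:**
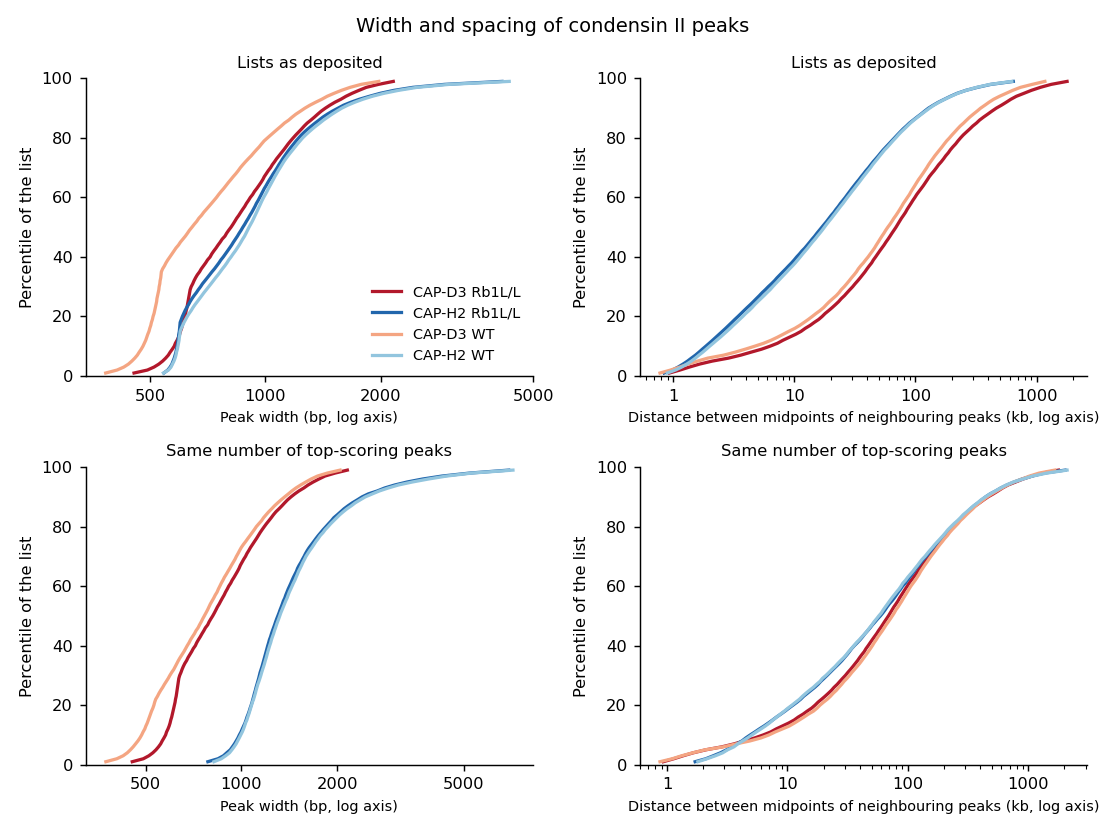
Percentiles of peak width (bp, log axis) and of the distance between midpoints of neighbouring peaks (kb, log axis), for the lists as deposited (top) and for the 12926 top-scoring peaks of each list (bottom), 1 line per list. At equal number the CAP-D3 width curves lie left of the CAP-H2 curves (medians of 813 bp and 765 bp against 1303 bp and 1321 bp), while the spacing curves nearly meet.

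Runs of closely spaced peaks were more common for CAP-H2. A run was counted where at least 3 peaks followed each other with midpoints under 5 kb apart. Such runs held 357 CAP-D3 peaks (2.76% of the list) and 9045 CAP-H2 peaks (21.2%) in Rb1L/L cells, and 658 CAP-D3 peaks (3.83%) and 8123 CAP-H2 peaks (19.3%) in WT cells. At equal number the shares were 2.76% for CAP-D3 and 4.88% for CAP-H2 in Rb1L/L cells, and 2.26% for CAP-D3 and 4.31% for CAP-H2 in WT cells. The longest CAP-D3 runs held 12 peaks in Rb1L/L cells (chr4:88419126-88452446, mm9) and 29 peaks in WT cells (chr8:126096329-126147912). The longest CAP-H2 runs held 30 peaks in Rb1L/L cells (chr4:63631736-63698972) and 35 peaks in WT cells (chr2:27748969-27817907). These are runs of the lists as deposited, and at equal number the order was reversed. The longest CAP-D3 runs then held 12 peaks in Rb1L/L cells and 28 in WT cells, and the longest CAP-H2 runs 9 in each. Gene names are not given for these places, since the annotation at hand is of another build than mm9.

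Most CAP-D3 peaks met a CAP-H2 peak, and most CAP-H2 peaks met no CAP-D3 peak. Of CAP-D3 peaks, 66.5% in Rb1L/L cells (exact binomial 95% interval 65.6 to 67.3) and 56.1% in WT cells (55.3 to 56.8) overlapped a CAP-H2 peak of the same genotype by at least 1 bp. Of CAP-H2 peaks, 19.8% in Rb1L/L cells (19.5 to 20.2) and 21.8% in WT cells (21.4 to 22.2) overlapped a CAP-D3 peak. Binomial intervals, here and later, hold only the error of counting. Higher-scoring peaks met the other subunit more often: 77.6% of CAP-D3 peaks in the top of 4 equal score bins and 57.5% in the lowest did so in Rb1L/L cells, and 75.3% and 43.6% in WT cells. For CAP-H2 peaks the top and lowest bins had 38.2% and 9.86% in Rb1L/L cells, and 42.2% and 10.48% in WT cells. CAP-H2 peaks occupied 1.79% of the chromosome span in Rb1L/L cells and 1.82% in WT cells.

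Overlap within an antibody and between antibodies depended on list length. Of CAP-D3 peaks in Rb1L/L cells, 70.5% met a CAP-D3 peak of WT cells and 66.5% a CAP-H2 peak of Rb1L/L cells. Of CAP-D3 peaks in WT cells, 53.6% met a CAP-D3 peak of Rb1L/L cells, 56.1% a CAP-H2 peak of WT cells and 57.3% a CAP-H2 peak of Rb1L/L cells. With the lists as deposited, CAP-D3 peaks thus met the long CAP-H2 lists about as often as the other CAP-D3 list.

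With 12926 peaks per list the lists of 1 antibody were closer to each other. Of CAP-D3 peaks, 65.1% in Rb1L/L cells and 65.2% in WT cells then met CAP-D3 of the other genotype, and 38.0% in Rb1L/L cells and 35.2% in WT cells met CAP-H2 of the same genotype. Of CAP-H2 peaks, 75.2% in Rb1L/L cells and 75.02% in WT cells met CAP-H2 of the other genotype, and 35.6% in Rb1L/L cells and 32.8% in WT cells met CAP-D3 of the same genotype. The bases common to both lists made up 47.9% of the union for the CAP-D3 lists and 56.8% for the CAP-H2 lists. Between CAP-D3 and CAP-H2 they made up 15.4% within Rb1L/L cells and 14.1% within WT cells, where the covered lengths would allow at most 56.3% and 51.2%. This comparison was added after the data were seen.

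Where a CAP-D3 peak met 1 CAP-H2 peak and that peak met no other, the CAP-H2 peak was more often the wider. There were 7669 such pairs in Rb1L/L cells and 8378 in WT cells. The CAP-H2 peak was the wider in 67.2% of pairs in Rb1L/L cells and 76.3% in WT cells. Their median widths were 890 bp for CAP-D3 and 1139 bp for CAP-H2 in Rb1L/L cells, and 777 bp for CAP-D3 and 1137 bp for CAP-H2 in WT cells. The CAP-D3 peak lay wholly inside the CAP-H2 peak in 41.6% of pairs in Rb1L/L cells and 50.9% in WT cells. The CAP-H2 peak lay inside the CAP-D3 peak in 14.3% of pairs in Rb1L/L cells and 9.70% in WT cells. The midpoints were a median of 163 bp apart in Rb1L/L cells and 159 bp in WT cells, under the 400 bp to which most chromatin was sheared.

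CAP-D3 peaks overlapped H3K27me3 more often than CAP-H2 peaks did. In Rb1L/L cells 8.05% and 6.62% of CAP-D3 peaks met a peak of H3K27me3 replicates 1 and 2, against 2.31% and 1.70% of CAP-H2 peaks. In WT cells 4.39% and 6.01% of CAP-D3 peaks did so, against 1.09% and 1.71% of CAP-H2 peaks. Every CAP-D3 value stood above every CAP-H2 value, whichever H3K27me3 list was used. The means gave a 3.66-fold higher share for CAP-D3 in Rb1L/L cells and a 3.72-fold higher share in WT cells. The difference averaged 4.57 percentage points over the genotypes (5.33 in Rb1L/L cells and 3.81 in WT cells; exact permutation p = 0.333, the smallest possible). It was 4.27 points with 12926 peaks per list.

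CAP-D3 had the higher share although its peaks were narrower, and the order was the same for midpoints alone. These gave 5.34% for CAP-D3 and 1.26% for CAP-H2 in Rb1L/L cells, and 3.96% for CAP-D3 and 0.895% for CAP-H2 in WT cells. Set against the share of the chromosome span that each H3K27me3 list covers, CAP-D3 midpoints lay in H3K27me3 3.18 and 2.07 times as often as that share in Rb1L/L cells and 3.50 and 2.65 times in WT cells. For CAP-H2 midpoints the same ratios were 0.808 and 0.444 in Rb1L/L cells and 0.747 and 0.621 in WT cells. All 4 CAP-D3 ratios were thus above 1 and all 4 CAP-H2 ratios below it. The chromosome span includes sequence to which no read can be placed, so both sets of ratios are relative.

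Broad H3K27me3 domains showed the contrast from the other side, despite the longer CAP-H2 lists. Of H3K27me3 peaks over 5 kb in replicates 1 and 2, 16.2% and 15.8% held a CAP-D3 peak in Rb1L/L cells, against 9.26% and 7.94% with a CAP-H2 peak. In WT cells 21.4% and 22.5% held a CAP-D3 peak, against 7.79% and 8.84% with a CAP-H2 peak. Among H3K27me3 peaks of up to 1 kb the order was not kept: 1.63% and 0.729% met a CAP-D3 peak in Rb1L/L cells, against 2.00% and 0.915% with a CAP-H2 peak. In WT cells 1.78% and 1.25% of these short peaks met a CAP-D3 peak, against 1.49% and 1.27% with a CAP-H2 peak.

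Between 2 kb and 20 kb from the midpoints, mean H3K27me3 ran in different directions around the subunits, falling for CAP-D3 and rising for CAP-H2. From 20 kb to 100 kb it rose for both. At CAP-D3 midpoints 5.34% of positions lay in an H3K27me3 peak in Rb1L/L cells, compared with 3.63% at a distance of 10 kb and 4.06% at 100 kb. At CAP-H2 midpoints the share in Rb1L/L cells was 1.26%, compared with 2.18% at 10 kb and 3.26% at 100 kb. WT cells gave 3.96%, 2.399% and 2.62% at these distances for CAP-D3, and 0.895%, 1.39% and 2.09% for CAP-H2. Within 1 kb the share was highest at the midpoint for both subunits: at 0.5 kb it was 4.67% for CAP-D3 and 1.01% for CAP-H2 in Rb1L/L cells, and 3.58% for CAP-D3 and 0.747% for CAP-H2 in WT cells. From 2 kb outward the mean share stayed below the midpoint for CAP-D3 and above it for CAP-H2. The median distance from a midpoint to the nearest H3K27me3 peak was 30.5 kb for CAP-D3 and 47.2 kb for CAP-H2 in Rb1L/L cells, and 51.3 kb for CAP-D3 and 68.6 kb for CAP-H2 in WT cells (mean of both H3K27me3 lists). Within each genotype CAP-D3 midpoints were the nearer, with log2 ratios of -0.61 in Rb1L/L cells and -0.41 in WT cells (1 kb added to each distance). Across genotypes the distances of the antibodies overlapped (exact permutation p = 0.667). That permutation does not hold the pairing of lists within a genotype.

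**Figure D3:**
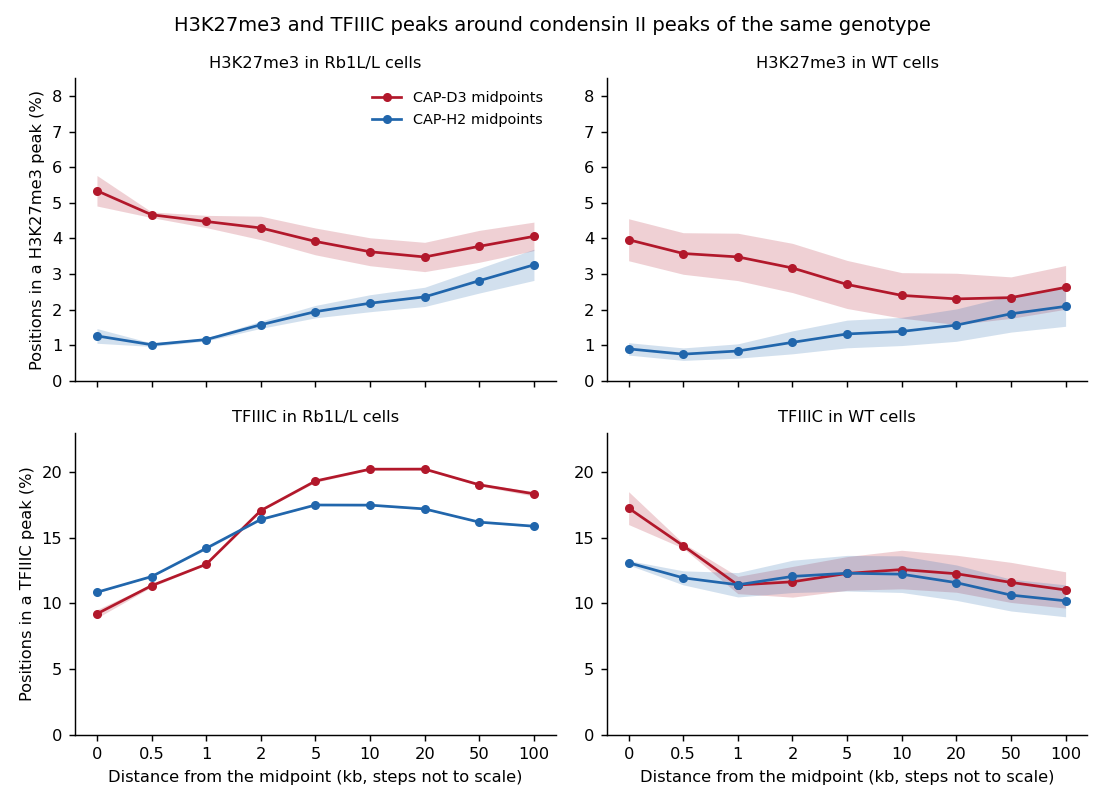
Percent of positions in an H3K27me3 peak (top) or a TFIIIC peak (bottom) at steps of 0 to 100 kb from the midpoints of CAP-D3 and CAP-H2 peaks, Rb1L/L left and WT right. Lines are the mean of 2 neighbour lists and bands span both. At the midpoint H3K27me3 is at 5.34% for CAP-D3 and 1.26% for CAP-H2 in Rb1L/L cells, and at 3.96% for CAP-D3 and 0.895% for CAP-H2 in WT cells.

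H3K27me3 was most frequent at CAP-D3 peaks that had no CAP-H2 peak. In Rb1L/L cells 13.2% of the 4334 CAP-D3 peaks without CAP-H2 overlapped H3K27me3, against 4.39% of the 8592 with it. In WT cells 8.29% of the 7553 CAP-D3 peaks without CAP-H2 did so, against 2.78% of the 9639 with it. CAP-H2 peaks ran the other way: 1.37% without CAP-D3 and 4.55% with it in Rb1L/L cells, and 0.934% without and 3.06% with it in WT cells. The order CAP-D3 alone, shared, CAP-H2 alone was thus the same in both genotypes.

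CAP-D3 peaks without CAP-H2 were narrower and had lower scores, with median widths of 674 bp against 892 bp in Rb1L/L cells and 534 bp against 774 bp in WT cells. The difference was therefore also read within 4 bins of equal size by score, a split chosen after the values were seen. In the top bin 15.4% of CAP-D3 peaks without CAP-H2 overlapped H3K27me3 against 5.48% of those with it in Rb1L/L cells, and 12.8% against 3.37% in WT cells. In the lowest bin the values were 5.43% and 3.12% in Rb1L/L cells and 3.22% and 1.87% in WT cells. The share was higher without CAP-H2 in all 4 bins of both genotypes. With 12926 peaks per list it was 9.09% without and 4.49% with CAP-H2 in Rb1L/L cells, and 7.78% without and 2.87% with it in WT cells.

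**Figure D4:**
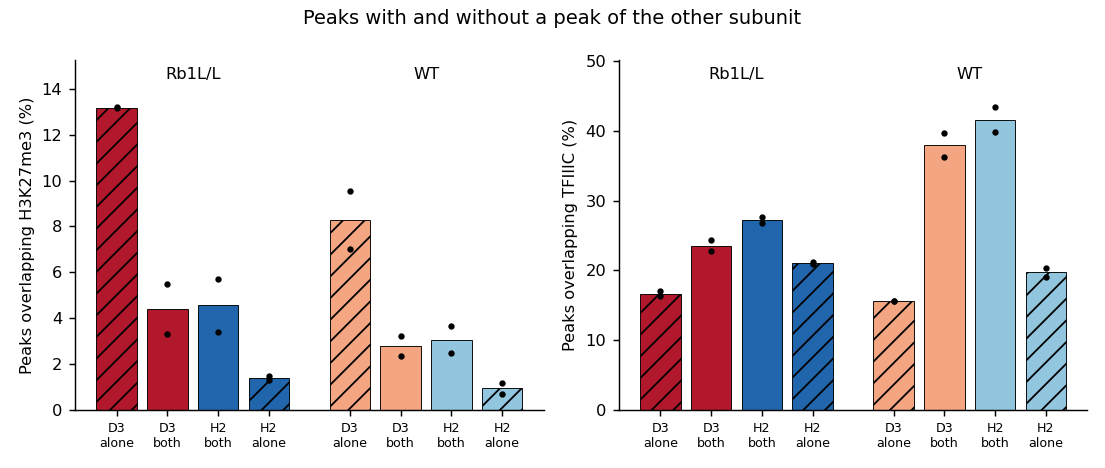
Percent of peaks overlapping H3K27me3 (left) and TFIIIC (right) for peaks of 1 subunit alone (hatched) and for peaks that overlap the other subunit (plain), by genotype. Bars are means over the 2 neighbour lists and dots the single lists. CAP-D3 peaks alone reach 13.2% in Rb1L/L cells and 8.29% in WT cells for H3K27me3, and have the lowest TFIIIC share of the 4 bars of each genotype, 16.6% in Rb1L/L cells and 15.6% in WT cells.

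Overlap with TFIIIC by at least 1 bp did not separate the antibodies. In Rb1L/L cells 21.6% and 20.8% of CAP-D3 peaks met TFIIIC replicates 1 and 2, against 22.3% and 22.3% of CAP-H2 peaks. In WT cells 29.1% and 27.2% of CAP-D3 peaks did so, against 24.3% and 24.6% of CAP-H2 peaks. The difference was -1.08 percentage points in Rb1L/L cells and 3.66 points in WT cells, with a mean of 1.29 (exact permutation p = 1). The mean became -5.92 points with 12926 peaks per list. There TFIIIC met 21.2% of CAP-D3 and 28.9% of CAP-H2 peaks in Rb1L/L cells, and 31.7% and 35.9% in WT cells. In every list TFIIIC overlap was higher in the top than in the lowest of 4 equal score bins. For CAP-H2 it went from 17.6% to 30.5% in Rb1L/L cells and from 16.9% to 38.0% in WT cells. The cut removed most CAP-H2 peaks and left the CAP-D3 list of Rb1L/L cells whole, so it raised the CAP-H2 shares by itself. The shift to -5.92 points is therefore not a separate result.

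The direction followed the TFIIIC list rather than the condensin II list. Against the WT TFIIIC lists, 32.0% of CAP-D3 peaks and 23.97% of CAP-H2 peaks from Rb1L/L cells overlapped, and 28.1% of CAP-D3 peaks and 24.5% of CAP-H2 peaks from WT cells. Against the Rb1L/L TFIIIC lists, 21.2% of CAP-D3 peaks and 22.3% of CAP-H2 peaks from Rb1L/L cells overlapped, and 19.1% of CAP-D3 peaks and 23.04% of CAP-H2 peaks from WT cells. As deposited, CAP-D3 was thus above CAP-H2 with 1 pair of TFIIIC lists and below it with the other, in cells of both genotypes. The TFIIIC lists held 286175 and 291040 peaks in Rb1L/L cells and 195239 and 230951 in WT cells. Cut to 195239 peaks each, an alternative chosen after the data were seen, they still met 13.2% of CAP-D3 and 14.9% of CAP-H2 peaks in Rb1L/L cells, and 24.9% of CAP-D3 and 21.7% of CAP-H2 peaks in WT cells.

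TFIIIC was less frequent at peaks of 1 subunit alone. CAP-D3 peaks overlapped TFIIIC in 16.6% of cases without CAP-H2 and 23.5% with it in Rb1L/L cells, and in 15.6% without and 38.0% with it in WT cells. CAP-H2 peaks did so in 21.1% without CAP-D3 and 27.2% with it in Rb1L/L cells, and in 19.7% without and 41.6% with it in WT cells. Peaks of 1 subunit alone were also narrower, with CAP-H2 medians of 821 bp without CAP-D3 and 1140 bp with it in Rb1L/L cells, and 851 bp without and 1155 bp with it in WT cells. The part of width in these shares was not tested.

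Distance to TFIIIC differed little between the antibodies. The median distance from a midpoint to the nearest TFIIIC peak was 2.48 kb for CAP-D3 and 2.77 kb for CAP-H2 in Rb1L/L cells, and 2.41 kb for CAP-D3 and 2.93 kb for CAP-H2 in WT cells. The mean log2 ratio of CAP-D3 over CAP-H2, with 1 kb added to each distance, was -0.16 (exact permutation p = 0.333) and -0.03 with 12926 peaks per list (exact permutation p = 0.667). At the midpoint itself TFIIIC stood at 9.21% for CAP-D3 and 10.8% for CAP-H2 in Rb1L/L cells, below the 20.2% for CAP-D3 and 17.5% for CAP-H2 found 10 kb away. In WT cells it stood at 17.2% for CAP-D3 and 13.1% for CAP-H2, above the 12.6% for CAP-D3 and 12.2% for CAP-H2 found 10 kb away. In Rb1L/L cells both TFIIIC lists were lower at the midpoint than 10 kb away, for both antibodies. In WT cells both were higher at CAP-D3 midpoints, whereas at CAP-H2 midpoints list 1 was higher (13.3% against 10.8% at 10 kb) and list 2 lower (12.9% against 13.6%).

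Merging all overlapping peaks of the 4 lists gave 60899 regions, which split by antibody far more often than by genotype. Both CAP-D3 lists and no CAP-H2 list had a peak in 1742 regions, both CAP-H2 lists and no CAP-D3 list in 19145, and all 4 lists in 5820. A split by genotype was rare, with 215 regions found in both Rb1L/L lists alone and 324 in both WT lists alone. At 12926 peaks per list the counts by antibody were nearer each other, 4213 for CAP-D3 and 4938 for CAP-H2, against 205 in both Rb1L/L lists alone and 169 in both WT lists alone, and 2868 regions were in all 4 lists.

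H3K27me3 differed widely between these classes. A peak in both H3K27me3 lists of Rb1L/L cells was present at 20.03% of the CAP-D3 regions (exact binomial 95% interval 18.2 to 22.0), 0.783% of the CAP-H2 regions (0.664 to 0.919) and 3.21% of the regions in all 4 lists (2.77 to 3.70). With the WT lists it was 17.2% of the CAP-D3 regions (15.5 to 19.1), 0.559% of the CAP-H2 regions (0.458 to 0.675) and 2.46% of the regions in all 4 lists (2.07 to 2.89). Over all 60899 regions it was 2.55% in Rb1L/L cells and 1.97% in WT cells. TFIIIC had another order. Both TFIIIC lists of Rb1L/L cells had a peak at 13.7% of the CAP-D3 regions, 17.6% of the CAP-H2 regions and 26.5% of the regions in all 4 lists, and those of WT cells at 11.1% of the CAP-D3 regions, 13.3% of the CAP-H2 regions and 37.3% of the regions in all 4 lists. Over all regions these shares were 17.8% in Rb1L/L cells and 15.1% in WT cells.

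Single regions with the highest scores show the forms these classes take. The 1588 regions with CAP-D3 in both genotypes and no CAP-H2 peak within 1 kb were led by chr16:93883559-93884637 (mm9), 1079 bp wide, with the nearest CAP-H2 peak 6.21 kb away in Rb1L/L cells and 6.03 kb away in WT cells. Among the 10 leading regions of this set, widths ran from 820 to 3659 bp. The lower of a region's 2 scores was 3100 at each of them. Mean score and then width therefore set their order. At 2 of the 10, chr13:56322494-56323387 and chr12:112512318-112513504, all 4 H3K27me3 lists had a peak, and at the other 8 none did. TFIIIC was present in all 4 of its lists at 1 of the 10, chr8:19855656-19859314.

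The 10 leading regions with CAP-H2 in both genotypes and no CAP-D3 within 1 kb, of 18408, were broader, from 1425 to 25789 bp. Their first was chr19:9053326-9060315, and the widest chr1:71626132-71651920. Places 5 to 10 were tied at a score of 3100 in both genotypes and were chosen by width. The breadth of these regions is therefore partly a matter of the selection. All 4 TFIIIC lists had a peak at 8 of these 10, and all 4 H3K27me3 lists at 0 of them. A region this wide meets a peak of another list more easily, so the TFIIIC counts of these 10 and of the narrower CAP-D3 regions are not on an equal footing.

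Shared regions showed the difference in width at a single place. The region in all 4 lists with the best ranks, chr19:5792426-5805403, held 1 CAP-D3 peak of 1262 bp and 1 CAP-H2 peak of 12722 bp in Rb1L/L cells, and 1 CAP-D3 peak of 1573 bp and 1 CAP-H2 peak of 12929 bp in WT cells. All 12 lists of the series had a peak there, as they did in 86 merged regions. The next, chr17:23808238-23814983, held 2 CAP-D3 peaks with 1920 bp in all and 1 CAP-H2 peak of 6686 bp in Rb1L/L cells, and 4 CAP-D3 peaks with 2677 bp and 1 CAP-H2 peak of 6363 bp in WT cells. In both regions the CAP-D3 peaks together were narrower than the CAP-H2 peak.

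The chromosomes took slightly different shares of the lists. CAP-D3 had the larger share on 7 of 19 chromosomes (36.8%) and the smaller share on 8 (42.1%) at a Benjamini-Hochberg adjusted p of 0.05 by limma with genotype as a term. The 7 were chromosomes 4, 5, 7, 9, 11, 17 and 19, and the 8 were chromosomes 1, 3, 6, 10, 14, 15, 16 and 18. Chromosome 7 had the highest ratio, with 6.75% of CAP-D3 and 5.86% of CAP-H2 peaks in Rb1L/L cells and 6.58% of CAP-D3 and 5.91% of CAP-H2 peaks in WT cells (log2 ratio 0.18 ± 0.02 SE, limma adjusted p = 0.00666). Chromosome 16 had the lowest ratio, with 3.25% of CAP-D3 and 4.06% of CAP-H2 peaks in Rb1L/L cells and 3.53% of CAP-D3 and 4.00% of CAP-H2 peaks in WT cells (log2 ratio -0.25 ± 0.04, limma adjusted p = 0.0118). All 15 called chromosomes had the same sign in both genotypes. The fitted ratio is the mean over the genotypes, and its error comes from their disagreement. The shared sign is therefore no separate support for the calls. The fitted error takes no separate account of counting. Exact binomial intervals of the CAP-D3 and CAP-H2 shares overlapped in both genotypes on several called chromosomes, among them 6, 9, 10 and 11. For chromosome 9 in Rb1L/L cells they were 5.19% to 5.99% for CAP-D3 and 5.11% to 5.54% for CAP-H2. Calls with such overlap are not secure. Shares of a list sum to a fixed total, so larger shares on some chromosomes require smaller ones on others.

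The chromosomes called with larger CAP-D3 shares were richer in both neighbours than those called with smaller shares. TFIIIC peaks covered 9.28% to 12.01% of those 7 chromosomes and 6.01% to 9.17% of the 8 with smaller shares, so these ranges did not overlap. H3K27me3 peaks covered 1.95% to 2.86% of the 7 and 0.949% to 1.70% of the 8, again without overlap. The 4 chromosomes not called overlapped both classes, with 7.00% to 9.67% for TFIIIC and 1.25% to 2.31% for H3K27me3. Among them, chromosome 2 lay within both ranges of the 7 (TFIIIC 9.38%, H3K27me3 2.31%), yet its log2 ratio was -0.03. With 12926 peaks per list, 3 chromosomes (4, 5 and 7) were called higher and 2 (15 and 18) lower. Leaving out the CAP-H2 list of Rb1L/L cells, or that of WT cells, also left 3 higher and 2 lower.

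**Figure D5:**
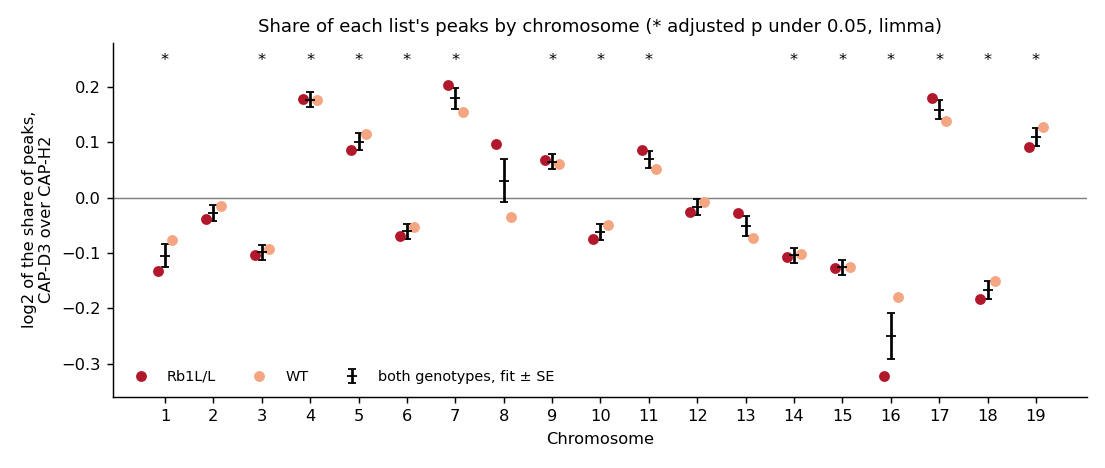
log2 ratio of the share of peaks on each chromosome, CAP-D3 over CAP-H2, for Rb1L/L cells and WT cells (dots) and for the limma fit over both (bars, ± SE); asterisks mark an adjusted p under 0.05. Ratios run from -0.25 on chromosome 16 to 0.18 on chromosome 7, and the dots of both genotypes fall on the same side of 0 except on chromosome 8.

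At a finer scale the lists were compared in windows of 1 Mb that held 5 or more peaks on average over the 4 lists. Windows could thus enter through the longer CAP-H2 lists alone, so the tested set leans to windows with many CAP-H2 peaks. Of 1766 windows, 258 (14.6%) had a larger share of the CAP-D3 lists and 255 (14.4%) a smaller one at a limma adjusted p of 0.05. Windows called lower held medians of 4 CAP-D3 and 29 CAP-H2 peaks in Rb1L/L cells, and 6 and 28 in WT cells. For those called higher the medians were 12 and 20.5 in Rb1L/L cells, and 15 and 19.5 in WT cells. The sign was the same in both genotypes in 257 of the 258 and 249 of the 255, read from the same values that made the calls. The fit has 1 residual degree of freedom per window and took the spread of all windows from a common trend, so single windows with more spread than others are not allowed for. The counts were 81 and 44 without the CAP-H2 list of Rb1L/L cells, 86 and 51 without that of WT cells, 372 and 436 without the CAP-D3 list of Rb1L/L cells, and 434 and 461 without that of WT cells. With 12926 peaks per list limma called 0 of 1037 windows in either direction (148 and 146 at an unadjusted p under 0.05).

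Windows with larger CAP-D3 shares held more of both neighbours. H3K27me3 covered a median of 3.14% of the windows called higher for CAP-D3, 0.673% of those called lower and 1.24% of all windows tested. TFIIIC covered a median of 15.3% of those called higher, 5.67% of those called lower and 8.18% of all (means of the 4 lists of each neighbour). Over the 1766 windows the log2 ratio of CAP-D3 over CAP-H2 had a Pearson r of 0.27 and a Spearman rho of 0.35 with H3K27me3 coverage, and 0.35 and 0.41 with TFIIIC coverage. These are descriptions over windows that share the same 4 lists, and neighbouring windows are not independent.

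Adjacent windows on chromosome 4 had the smallest p among those higher for CAP-D3. The window from 145000001 to 146000000 held 23 CAP-D3 and 9 CAP-H2 peaks in Rb1L/L cells, and 25 CAP-D3 and 1 CAP-H2 peaks in WT cells. The next, from 146000001 to 147000000, held 31 CAP-D3 and 2 CAP-H2 peaks in Rb1L/L cells, and 29 CAP-D3 and 0 CAP-H2 peaks in WT cells. CAP-D3 peaks outnumbered CAP-H2 peaks there although its lists were shorter, and TFIIIC covered 18.4% and 20.8% of the windows while H3K27me3 covered 0.749% and 0.552%. The other 3 windows named by the smallest p were chr13:23000001-24000000, chr8:126000001-127000000 and chr7:134000001-135000000, with log2 ratios of 1.65, 1.39 and 1.33 and TFIIIC coverage of 5.90%, 28.3% and 26.3%. H3K27me3 covered 3.15%, 6.00% and 5.56% of these 3 windows.

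Of the 5 named windows lower for CAP-D3, 4 had less H3K27me3 coverage than the median window tested (1.24%). The named chromosome 4 windows higher for CAP-D3 also lay below that median. The window chr16:24000001-25000000 held 6 CAP-D3 and 155 CAP-H2 peaks in Rb1L/L cells, and 12 CAP-D3 and 100 CAP-H2 peaks in WT cells, a log2 ratio of shares of -2.29. In chr8:105000001-106000000 there were 2 CAP-D3 and 68 CAP-H2 peaks in Rb1L/L cells, and 2 CAP-D3 and 45 CAP-H2 peaks in WT cells. H3K27me3 covered 0.184% and 0.117% of them. The other 3 were chr2:27000001-28000000, chr7:119000001-120000000 and chr1:165000001-166000000, with log2 ratios of -1.71, -1.16 and -1.69 and H3K27me3 coverage of 2.73%, 0.247% and 0.227%. TFIIIC coverage of the 5 varied widely, with 5.81% on chromosome 16, 1.75% on chromosome 8, 39.4% on chromosome 2, 18.7% on chromosome 7 and 4.13% on chromosome 1. The windows on chromosomes 2 and 7 thus held more TFIIIC than the median window called higher for CAP-D3. All 10 named windows kept their direction with 12926 peaks per list, at limma adjusted p-values of 0.159 to 0.324.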

How the data were processed

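Per the submitters' processing notes, Bowtie2 2.3.0, MACS 1.4.0rc2 and the mouse build mm9 were used; settings are not given in the sources used here. The deposited files are peak lists, 1 per library, each peak with the authors' score (column 5, no header, lowest 50). Per the labels, CAP-D3 and CAP-H2 of Rb1L/L cells used the input of H3K27me3 replicate 1, and those of WT cells the input of replicate 2.

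Groups came from the labels. Members, lists and tests were chosen with earlier results of these data known. List summaries were compared by two-sided exact permutation of the antibody over 4 lists, which measures only the spread between these lists, and distances on log2 (median + 1 kb). Overlap means at least 1 bp. Shares of a list per chromosome and per 1 Mb window (pseudocount 0.5 peaks, trend in the variance for windows) were tested with limma 3.58.1 in R 4.3.3, with genotype as a term and Benjamini-Hochberg adjustment. Python 3.11.15, numpy 2.4.6, pandas 2.3.3 and scipy 1.17.1 did the rest.

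Named regions are, per set, the 10 (5 for regions in all 4 lists) with the best scores or ranks, ties broken by mean score, width and position; named windows are the 5 per direction with the smallest p. Alternatives were a score of at least 100, equal numbers of peaks, other overlap rules, other neighbour lists, other windows and pseudocounts, no genotype term, and leaving out each list. Coordinates are 1-based. Sex chromosomes and unplaced sequence were left out of comparisons.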

Additional observations from a re-analysis of the deposited data

Results flagged for a closer look

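The difference in the share of peaks overlapping TFIIIC had opposite signs in the genotypes. CAP-D3 minus CAP-H2 was -1.08 percentage points in Rb1L/L cells, where CAP-D3 lay at 21.6% and 20.8% and CAP-H2 at 22.3% with either TFIIIC list. It was 3.66 points in WT cells, where CAP-D3 lay at 29.1% and 27.2% and CAP-H2 at 24.3% and 24.6%. The difference between genotypes was not tested, since each antibody has 1 list per genotype.

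Peaks outside chromosomes 1 to 19 were left out of the comparisons. Chromosome X held 283 CAP-D3 and 522 CAP-H2 peaks in Rb1L/L cells, and 375 CAP-D3 and 563 CAP-H2 peaks in WT cells. These are 2.14% (exact binomial 95% interval 1.899 to 2.3996) of the CAP-D3 list and 1.21% (1.11 to 1.32) of the CAP-H2 list in Rb1L/L cells, and 2.13% (1.93 to 2.36) of the CAP-D3 list and 1.32% (1.21 to 1.43) of the CAP-H2 list in WT cells. Chromosome Y held 24 CAP-D3 and 3 CAP-H2 peaks in Rb1L/L cells, and 9 CAP-D3 and 0 CAP-H2 peaks in WT cells.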

How the results depend on the processing

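With 2 lists per antibody the exact permutation test of a list summary cannot reach a p under 0.05, and read depth, which bears on number, width and spacing, is unknown. Leaving out each list in turn gave log2 ratios of -1.71 to -1.30 for peak number, -1.91 to -1.75 for covered length, -0.47 to -0.13 for median width and 1.77 to 2.00 for median spacing. The H3K27me3 share difference ran from 3.50 to 5.64 points, that of TFIIIC from -2.17 to 4.75, and the log2 distances from -0.85 to -0.17 for H3K27me3 and -0.19 to -0.13 for TFIIIC. Equal numbers give no value for peak number, as they are equal by construction.

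The TFIIIC share difference (1.29) was reversed with a score of at least 100 (-1.33), with equal numbers (-5.92), in Rb1L/L cells alone (-1.08) and without the CAP-D3 list of WT cells (-2.17). It kept its sign in the other 14 of 18 alternatives.

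The share of CAP-D3 peaks with CAP-H2 in Rb1L/L cells (66.5%) was 69.5% with a gap of up to 1 kb, 60.1% with at least 50% of the peak covered, 61.3% by midpoint, 61.2% with a score of at least 100 and 38.0% at equal numbers. In WT cells (56.1%) these were 59.5%, 51.5%, 51.9%, 48.0% and 35.2%. The share of CAP-H2 peaks with CAP-D3 in Rb1L/L cells (19.8%) was 22.5%, 14.7%, 16.5%, 22.3% and 35.6% in that order, and in WT cells (21.8%) 24.8%, 14.5%, 17.7%, 27.8% and 32.8%. Equal numbers moved the regions with both CAP-D3 lists only to 4213, with both CAP-H2 lists only to 4938, with all 4 lists to 2868 and with both WT lists only to 169. They also moved the excess of H3K27me3 at CAP-D3 peaks without CAP-H2 in Rb1L/L cells to 4.60 points, against 8.80 with the lists as deposited.

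Windows higher and lower for CAP-D3 (258 and 255) numbered 0 and 0 at equal numbers, where 1037 windows were tested and limma drew less on the common trend (1.28 prior degrees of freedom), 451 and 385 with 500 kb windows, 409 and 168 with a pseudocount of 2 peaks, 151 and 233 without a variance trend, and 220 and 298 with a pseudocount scaled to list length, an alternative added after the data were seen. Leaving out each list, without a genotype term and with the lone list assumed to vary like the others, gave 81 to 434 and 44 to 461. Chromosomes (7 and 8) numbered 3 and 2 at equal numbers, and 3 to 8 and 2 to 8 with a list left out. Of chromosomes that were not called, the log2 ratio changed sign on chromosome 2 (0.015 at equal numbers), chromosome 8 (-0.043 to 0.104 with a list left out, negative without the CAP-D3 list of Rb1L/L cells) and chromosome 12 (0.0024 with a score of at least 100, 0.022 at equal numbers). The cause was not tested.

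The labels pair CAP-D3 and CAP-H2 within a genotype by a shared input, and the fits to chromosomes and windows hold this pairing as a genotype term. Without that block 213 windows were higher and 182 lower, and 7 chromosomes were higher and 7 lower.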
